A study of Mus musculus with 50 samples.

Results

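The genes described here are 36 genes of the unfolded protein response and the amino acid response, out of 18193 gene symbols with a probe set on the array. They were taken by name, as the rows whose only gene symbol was a member, and each gene was read from its probe set with the highest mean. All 36 were among the 12883 genes tested. Of these, 34 lay above 6.44, the log2 median over the table, on all 50 arrays, Slc7a11 on 29 and Slc7a3 on 10. Slc7a3 therefore entered the test only through the parental cells, where it was high, and 1 further array.

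The cells were young adult mouse colon (YAMC) cells, a line from the Immorto-mouse, which carries a temperature-sensitive SV40 large T antigen (tsA58) under the interferon-inducible H-2Kb promoter. All 5 groups share this transgene. Retroviral infection had given 4 polyclonal populations: bleo/Neo with both empty vectors, mp53 with mutant p53 (p53175H), Ras with activated RasV12, and mp53/Ras with both. Parental YAMC cells were not infected. Every group was held at 39 °C without interferon γ for 48 h and then for 24 h in 0% serum, and mRNA bound to polysomes was hybridised, 10 arrays per group. Each population was made once, and the labels do not say whether replicate arrays came from separate cultures, so the tests measure the spread between these samples only. Levels are log2 intensities. A difference is a difference of group means on that scale with the standard error (SE) of the fit, and it was called at an adjusted p under 0.05. In bulk RNA fewer cells of a type and less RNA per cell cannot be told apart, nor can transcript abundance and ribosome loading in polysomal RNA.

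The unfolded protein response starts at the endoplasmic reticulum (ER), where the sensors PERK, IRE1 and ATF6 respond to misfolded protein. IRE1 splices Xbp1 mRNA, and ATF6 and spliced XBP1 induce chaperones and the degradation machinery of the ER. PERK phosphorylates eIF2α, as GCN2 does when amino acids are scarce, which lowers general translation while Atf4 mRNA is translated more. ATF4 in turn induces genes of amino acid uptake, amino acid synthesis and stress signalling, a programme called the integrated stress response. The 36 genes were sorted by role into an amino acid arm of 19 genes and an ER arm of 17. The amino acid arm holds 8 transcription factors and signalling genes, 6 enzymes of amino acid and one-carbon synthesis, and 5 membrane transporters and receptors. Xbp1 is among these 8 only because it is a transcription factor. It belongs to the IRE1 branch described above, and the counts and means of the amino acid arm include it. The ER arm holds 13 chaperones and folding enzymes and 4 genes of ER-associated degradation.

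The promoters were searched for 4 motifs of these pathways. Promoters of 300 bases (250 before and 50 after the start site, RefSeq, GRCm38.p6) matched 32 of the 36 genes, with 35 promoters. The ER stress element, CCAAT and CCACG with 9 bases between them on either strand, was in 7 of the 15 ER arm promoters (46.7%), in 0 of the 20 amino acid arm promoters and in 0.119% of all 32851 promoters. Those promoters belong to Hspa5, Hsp90b1, Calr, Pdia6, Dnajc3, Creld2 and Syvn1. The ER stress element II, ATTGG and CCACG with 1 base between them, was in the promoters of Herpud1 and Dnajb11 and in 0.0365% of all. The C/EBP-ATF element TGATGNAA, bound by ATF4 with C/EBP partners, was in 5 of the 20 amino acid arm promoters (25%), in 1 of 15 in the ER arm and in 3.97% of all. The genes were Trib3, Chac1, Asns, Slc7a11, Vldlr and, in the ER arm, Herpud1. The XBP1 element TGACGTGG was in 0.676% of all promoters and in none of the members' promoters. A match says only that the letters are there. The 250 bases before the start site are shown for 5 genes to which the results return, each 5′ to 3′ on the strand of the gene, with the matched letters in capitals. Hspa5 shows an ER stress element, Herpud1 holds letters of both kinds, and the other three show the C/EBP-ATF element, which Slc7a11 holds on both strands.
Hspa5 (chr2:34771840-34772089, plus strand): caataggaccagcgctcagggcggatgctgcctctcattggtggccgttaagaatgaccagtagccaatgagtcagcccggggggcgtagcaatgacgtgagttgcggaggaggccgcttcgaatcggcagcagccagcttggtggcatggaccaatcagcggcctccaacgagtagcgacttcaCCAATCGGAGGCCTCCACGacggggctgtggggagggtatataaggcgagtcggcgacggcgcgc
Herpud1 (chr8:94386179-94386428, plus strand): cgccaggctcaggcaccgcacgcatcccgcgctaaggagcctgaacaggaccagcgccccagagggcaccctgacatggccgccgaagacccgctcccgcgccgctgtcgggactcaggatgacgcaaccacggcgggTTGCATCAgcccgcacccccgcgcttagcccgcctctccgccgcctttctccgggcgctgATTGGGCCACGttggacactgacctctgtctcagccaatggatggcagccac
Asns (chr6:7693210-7693459, minus strand): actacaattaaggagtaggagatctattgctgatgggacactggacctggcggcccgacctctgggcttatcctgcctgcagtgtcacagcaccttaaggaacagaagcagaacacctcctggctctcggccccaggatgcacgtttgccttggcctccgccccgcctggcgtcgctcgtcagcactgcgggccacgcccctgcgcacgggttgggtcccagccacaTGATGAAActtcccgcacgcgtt
Chac1 (chr2:119350992-119351241, plus strand): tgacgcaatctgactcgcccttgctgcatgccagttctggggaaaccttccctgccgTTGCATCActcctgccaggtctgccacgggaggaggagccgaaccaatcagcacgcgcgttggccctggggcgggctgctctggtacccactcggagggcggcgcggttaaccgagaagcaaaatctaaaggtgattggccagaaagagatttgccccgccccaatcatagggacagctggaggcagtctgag
Slc7a11 (chr3:50443614-50443863, minus strand): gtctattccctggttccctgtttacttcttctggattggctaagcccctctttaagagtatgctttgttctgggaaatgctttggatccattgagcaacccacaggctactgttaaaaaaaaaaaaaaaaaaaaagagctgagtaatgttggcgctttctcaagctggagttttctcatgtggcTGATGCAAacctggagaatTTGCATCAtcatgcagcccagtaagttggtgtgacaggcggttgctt

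Some arrays stood apart from their groups. Over all tested genes, 46 of the 50 arrays lay nearest the mean of their own group. The others were YAMC 2 and Ras 10, nearest mp53, mp53 8, nearest YAMC, and mp53 10, nearest Ras. The distance of mp53 10 was 0.266 to Ras and 0.418 to its own group, and that of Ras 10 was 0.275 to mp53 and 0.489 to its own. Whether labels were exchanged could not be settled from the data, so each array is described under the group in its label. By the 36 genes alone, 35 of 50 arrays lay nearest their own group. Counts for the comparisons are therefore also given without mp53 10 and Ras 10 and without all 4 such arrays. Uty, Kdm5d and Eif2s3y, which are Y-linked, had a mean of 3.57 to 3.80 in bleo/Neo and 5.81 to 8.17 elsewhere. Of the epithelial markers, Krt8, Krt18, Krt19, Krt7, Epcam and Tjp1 were above the table median in every group. Cdh1, Cldn4, Ocln and Dsp were below it in every group, and Cldn7 was below it in mp53 only. Of the colon differentiation markers, Cdx1, Vil1, Car1, Fabp2 and Chga were below it in every group. Cdx2 was above it in mp53/Ras only, Muc2 in mp53, Ras and mp53/Ras, and Car2 in every group, at 6.75 or lower. In every group Col1a1, Col3a1, Acta2 and Tagln of the fibroblast and smooth muscle list were at 12.35 or higher, while Lum, Pdgfra and Myh11 were at 6.47 or lower. Col1a2 was 8.69 in bleo/Neo and 12.08 to 13.30 elsewhere, and Cnn1 ranged from 8.25 in YAMC to 5.17 in mp53/Ras. Dcn went the other way from Col1a2, with 12.92 in bleo/Neo and 10.69 to 12.04 elsewhere. Pdgfrb was at 7.623 to 8.006 and Des at 8.095 to 8.355 over the groups. The mean of the 12 fibroblast and smooth muscle genes spanned 9.79 to 10.14 in YAMC, 9.19 to 9.59 in bleo/Neo, 9.24 to 10.09 in mp53, 9.02 to 9.67 in Ras and 9.22 to 9.50 in mp53/Ras. Of the immune markers, Ptprc, Itgam and Adgre1 were below the table median in every group and Cd68, Cd14, Cd3e and Csf1r above it. Of the endothelial markers, Pecam1, Cdh5, Tie1 and Emcn were below it and Kdr was above it in every group, while Tek was above it in bleo/Neo and mp53. The part of these differences in the results was not tested.

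Cells carrying Ras had lower levels of many of these genes than the parental cells. Against YAMC, 19 of the 36 genes were called lower and 1 higher in Ras, where 21.2% of all tested genes were lower and 21.5% higher. In mp53/Ras against YAMC, 17 were lower and 3 higher, beside 28.7% and 29.1% of all genes. In mp53 against YAMC, 6 were lower and none higher, beside 11.8% and 11.1% of all genes, and at an unadjusted p under 0.05 in limma 8 were lower and none higher. Shares of all tested genes at an unadjusted p are not given, here or below, so such counts have no background beside them. Against bleo/Neo, 16 were lower and 1 higher in Ras (21.4% and 19.7% of all genes), 12 lower and 4 higher in mp53/Ras (27.9% and 26.7%), and 5 lower and 3 higher in mp53 (18.9% and 16.5%). By arm, the lower genes in Ras against YAMC were 14 of the 19 in the amino acid arm and 5 of the 17 in the ER arm, but in Ras against bleo/Neo they were 7 of 19 and 9 of 17. In mp53/Ras they were 10 of 19 and 7 of 17 against YAMC and 6 of 19 and 6 of 17 against bleo/Neo. Slc7a3 is among the lower genes of each comparison with YAMC. The filter on dim genes kept it through its YAMC arrays, so its part in these counts is no independent support. The median difference of the 36 genes was -0.42 in Ras against YAMC, where that of all tested genes was 0.01, and -0.28 in Ras against bleo/Neo, where that of all genes was -0.01. The comparisons with YAMC share the YAMC arrays and those with bleo/Neo share the bleo/Neo arrays, so their counts are not independent of each other.

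These counts were repeated without the arrays nearest another group. Without mp53 10 and Ras 10, Ras had 22 lower and 1 higher against YAMC, beside 23.1% and 22.7% of all tested genes. Against bleo/Neo it had 19 lower and 1 higher, beside 23% and 20.6%, with Atf4 called lower in both. For mp53, 5 genes were then lower and none higher against YAMC (12.8% and 11.7% of all genes). Against bleo/Neo, 6 were lower and 3 higher (19.6% and 16.9%). Without all 4 arrays, mp53 against YAMC had 5 lower and 3 higher genes, so that its count was no longer one-sided. The rises were Chac1 (0.53), Xbp1 (0.34) and Cebpb (0.27). Of all tested genes 16.9% were then lower and 16.8% higher. Against bleo/Neo, mp53 then had 7 lower and 3 higher, beside 21.6% and 18.5%. For Ras without all 4 arrays, 21 were lower and 1 higher against YAMC, beside 23% and 23.8% of all genes. Against bleo/Neo 19 were lower and 2 higher, beside 24.8% and 22.3%. For mp53/Ras against YAMC, 17 lower and 3 higher were counted under both. The shares of all genes were 29.1% and 29.4% without 2 arrays and 29% and 30.6% without 4. Against bleo/Neo, mp53/Ras had 12 and 4 without 2 arrays (28.3% and 27%) and 13 and 5 without 4 (29.6% and 28.3%).

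**Figure D1:**
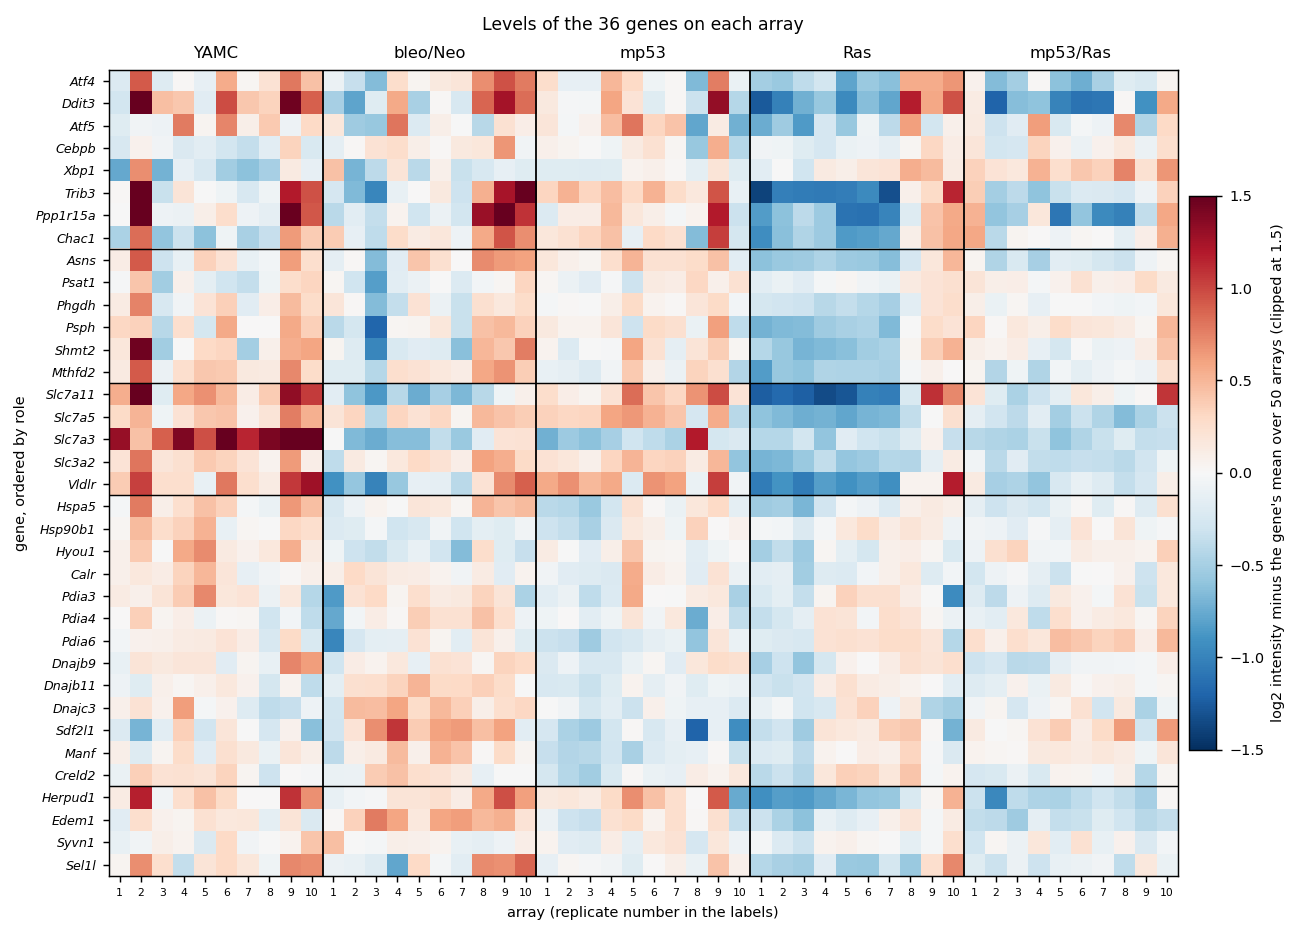
Levels of the 36 genes (rows, ordered by role, with lines between roles) on the 50 arrays (columns, by population and replicate number), as log2 intensity minus the mean of the gene over all arrays. Most rows from Atf4 to Vldlr are low on the arrays Ras 1 to Ras 7 and high on YAMC 2 and YAMC 9 (the exceptions are Xbp1 on Ras 4 to Ras 7, Psat1 on Ras 5, and Atf5 on both YAMC arrays), while the rows from Hsp90b1 to Creld2 vary less.

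Among the transcription factors, Ddit3, the pro-apoptotic factor CHOP, fell in both populations with Ras against YAMC. Its lowest, median and highest arrays were 10.01, 10.72 and 12.18 in YAMC, 9.49, 10.21 and 11.53 in bleo/Neo, and 9.86, 10.29 and 11.60 in mp53. In Ras they were 9.03, 9.61 and 11.47 and in mp53/Ras 9.09, 9.51 and 10.86. The medians of the populations with Ras were below the lowest YAMC array, although the groups overlapped through a few high arrays. The difference from YAMC was -0.96 ± 0.29 (SE, n = 10 arrays per group) in Ras and -1.22 ± 0.29 in mp53/Ras, the latter a level 2.33 times lower, with adjusted p of 0.0067 and 0.0004 in limma. Against bleo/Neo it was -0.72 ± 0.29 in mp53/Ras, adjusted p 0.034, and -0.46 ± 0.29 in Ras, which was not called. With the mean of both Ddit3 probe sets in place of the brighter, Ras against YAMC was -0.36, adjusted p 0.052.

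Trib3, a pseudokinase that ATF4 and CHOP induce and that dampens ATF4, was lowest in the Ras cells. The lowest, median and highest arrays were 10.58, 10.92 and 12.53 in YAMC, 9.94, 10.87 and 12.52 in bleo/Neo, and 10.81, 11.24 and 11.86 in mp53. In Ras they were 9.53, 9.89 and 12.06, and in mp53/Ras 10.31, 10.68 and 11.28. Within the Ras group 7 arrays lay between 9.53 and 9.96 and the other 3, Ras 8, Ras 9 and Ras 10, between 10.996 and 12.06. The Ras level was -0.96 ± 0.27 from YAMC (adjusted p 0.0033), -0.75 ± 0.27 from bleo/Neo (adjusted p 0.021) and -1.004 ± 0.27 from mp53 (adjusted p 0.0029). The difference from bleo/Neo was not called when only the groups compared were fitted, adjusted p 0.074. In mp53/Ras none of the differences of Trib3 was called, from -0.56 against mp53 to 0.44 against Ras. Without mp53 10 and Ras 10 the first was -0.61 and called, adjusted p 0.039.

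Atf4 itself, the factor on which this arm rests, had group means from 12.15 in mp53/Ras to 12.72 in YAMC. It was lower in mp53/Ras by called differences of -0.57 ± 0.19 from YAMC and -0.52 ± 0.19 from bleo/Neo, and both calls were lost with the mean of its 3 probe sets (-0.25 and -0.26, adjusted p 0.097 and 0.09). In Ras, Atf4 was -0.39 ± 0.19 from bleo/Neo with adjusted p 0.098, and without mp53 10 and Ras 10 it was -0.48 with adjusted p 0.034. Ppp1r15a (GADD34), the phosphatase subunit that reverses eIF2α phosphorylation, had means of 10.45 for YAMC, 10.26 for bleo/Neo, 10.18 for mp53, 9.53 for Ras and 9.63 for mp53/Ras. Against YAMC it was -0.93 ± 0.28 in Ras and -0.83 ± 0.28 in mp53/Ras. Against bleo/Neo it was -0.74 ± 0.28 and -0.64 ± 0.28, the latter with adjusted p 0.049 and not called under 4 alternatives. Chac1, which degrades glutathione, was -0.64 ± 0.20 in Ras from bleo/Neo and -0.56 ± 0.20 from mp53.

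Xbp1, the factor spliced by IRE1, ran the other way. Its means were 10.22 for YAMC, 10.33 for bleo/Neo, 10.43 for mp53, 10.63 for Ras and 10.89 for mp53/Ras. In mp53/Ras it was 0.67 ± 0.13 above YAMC, 0.55 ± 0.13 above bleo/Neo and 0.46 ± 0.13 above mp53, with adjusted p from 2e-05 to 0.0029, and the 4 probe sets of the gene were 0.233 to 0.555 above bleo/Neo. In Ras it was 0.41 ± 0.13 above YAMC, a call lost with the mean of its probe sets (0.17, adjusted p 0.25). These probe sets were not used to separate spliced from unspliced mRNA. Atf5, an ATF4-related factor, was called once, -0.50 ± 0.18 in Ras from YAMC, and Cebpb, a C/EBP partner of ATF4, was called once, 0.27 ± 0.10 in bleo/Neo from YAMC.

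**Figure D2:**
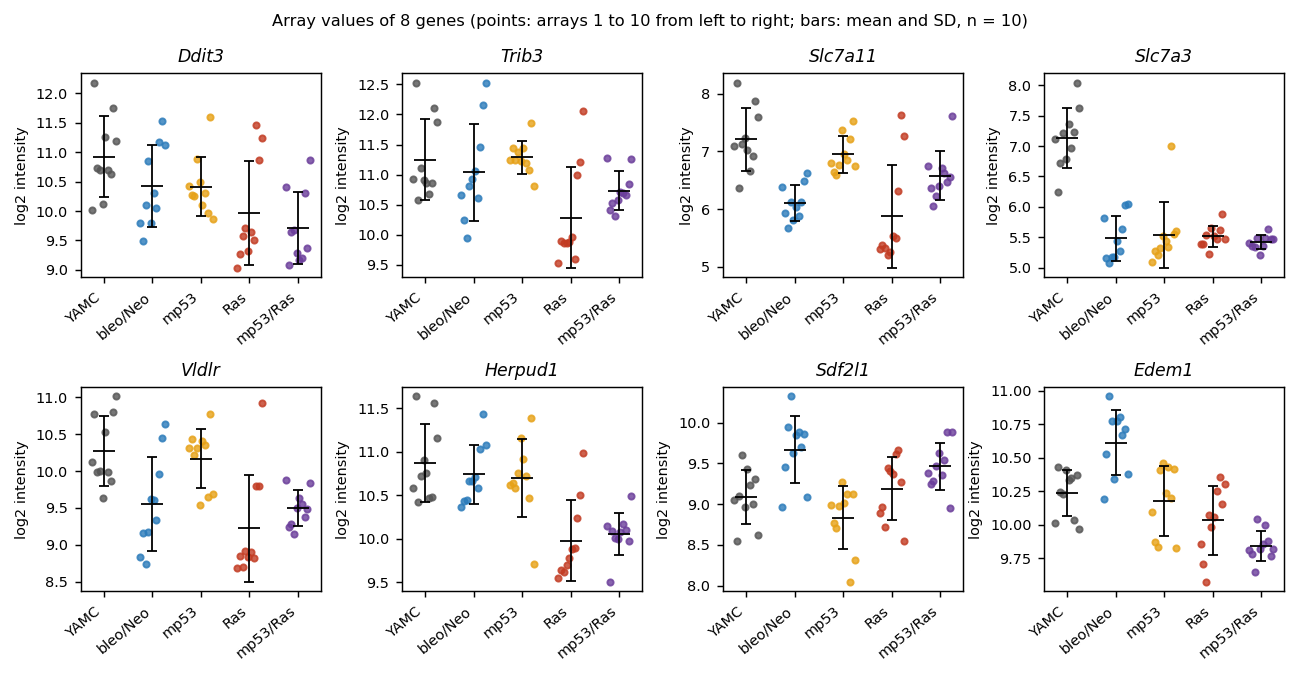
Log2 intensity of 8 genes on each array, by population, with the mean and SD of the 10 arrays. Ddit3, Trib3, Slc7a11, Vldlr and Herpud1 are low on most Ras arrays and high on up to 3 of them, Slc7a3 is high in YAMC and on mp53 8, the Sdf2l1 mean is highest in bleo/Neo, and Edem1 in mp53/Ras lies wholly below bleo/Neo.

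The enzymes that make serine, glycine, asparagine and folate-bound one-carbon units were lower in Ras than in YAMC for 5 of 6 genes. In that comparison 21.2% of all tested genes were lower. The differences were -0.71 ± 0.13 for Mthfd2 (mitochondrial folate enzyme), -0.55 ± 0.18 for Shmt2 (mitochondrial serine to glycine), -0.54 ± 0.15 for Psph, -0.54 ± 0.14 for Asns (asparagine synthetase) and -0.41 ± 0.10 for Phgdh, the first enzyme of serine synthesis. The sixth, Psat1, the aminotransferase between Phgdh and Psph, was at 12.07 in YAMC and 12.11 in Ras. Against bleo/Neo only Asns and Mthfd2 were called in Ras, -0.51 ± 0.14 and -0.54 ± 0.13, and the Mthfd2 call was lost with its probe set of highest variance (-0.35, adjusted p 0.13). In mp53/Ras, Asns was -0.38 ± 0.14 from bleo/Neo, the serine enzyme Psat1 was 0.25 ± 0.10 above it, and Phgdh and Psph were at 0.02 and 0.26, not called. Psph was higher in mp53/Ras than in Ras by 0.55 ± 0.15, adjusted p 0.0057. Its arrays ran from 10.50 to 11.49 in Ras, median 10.70, and from 11.23 to 11.71 in mp53/Ras, median 11.37, so that all 10 mp53/Ras arrays were above the Ras median. Another probe set of Shmt2 was 0.27 above bleo/Neo in Ras where the one used was -0.24.

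Slc7a11 is the light chain of the cystine/glutamate exchanger, which supplies cysteine for glutathione. Its lowest, median and highest arrays were 6.36, 7.11 and 8.19 in YAMC, 5.68, 6.08 and 6.62 in bleo/Neo and 6.58, 6.83 and 7.52 in mp53. In Ras they were 5.201, 5.44 and 7.63 and in mp53/Ras 6.06, 6.52 and 7.61. All mp53 arrays except mp53 3, at 6.58, were above the highest bleo/Neo array, while 7 Ras arrays were between 5.201 and 5.53 and Ras 8, 9 and 10 between 6.31 and 7.63. The level was -1.10 ± 0.23 in bleo/Neo and -1.33 ± 0.23 in Ras from YAMC, 0.84 ± 0.23 in mp53 from bleo/Neo, and -1.07 ± 0.23 in Ras from mp53. It was 0.71 ± 0.23 higher in mp53/Ras than in Ras, adjusted p 0.022. The gene is dim: with values below the table median raised to it, Ras from mp53 was -0.31 (adjusted p 0.15) and mp53/Ras from Ras was 0.01 (adjusted p 0.98).

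Slc7a5 (LAT1) carries large neutral amino acids and pairs with the heavy chain Slc3a2, which also serves Slc7a11. Slc7a5 means were 11.76 for YAMC, 11.65 for bleo/Neo, 11.73 for mp53, 10.93 for Ras and 11.06 for mp53/Ras. The lowest YAMC array, 11.36, was above the highest mp53/Ras array, 11.29, and the same was true of Slc3a2, with 12.30 in YAMC and 12.19 in mp53/Ras. Slc7a5 differed from YAMC by -0.83 ± 0.12 in Ras and -0.70 ± 0.12 in mp53/Ras, and Slc3a2 by -0.75 ± 0.11 and -0.60 ± 0.11. Both genes were also called lower in Ras and in mp53/Ras against bleo/Neo and against mp53, with Slc7a5 between -0.80 and -0.60 and Slc3a2 between -0.63 and -0.48. Adjusted p over these was at most 0.0003. Neither gene was called in mp53 against either control.

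Slc7a3, a transporter of cationic amino acids, was higher in the parental cells than in each infected population. Its lowest, median and highest arrays were 6.25, 7.17 and 8.05 in YAMC, 5.07, 5.36 and 6.04 in bleo/Neo, 5.10, 5.39 and 7.01 in mp53, 5.23, 5.50 and 5.88 in Ras, and 5.22, 5.44 and 5.63 in mp53/Ras. All 10 YAMC arrays were above every bleo/Neo, Ras and mp53/Ras array, and in mp53 only mp53 8, at 7.01, reached them. Against YAMC the difference was -1.65 ± 0.16 for bleo/Neo, -1.60 ± 0.16 for mp53, -1.61 ± 0.16 for Ras and -1.71 ± 0.16 for mp53/Ras. These are given as a description without p, because the filter on dim genes kept Slc7a3 through its YAMC arrays. The infected populations lay below the table median, so these differences have a floor set by the background of the array. Vldlr, a lipoprotein receptor that ATF4 induces under ER stress, had its lowest, median and highest arrays at 9.64, 10.06 and 11.01 in YAMC, 8.74, 9.47 and 10.64 in bleo/Neo, and 9.54, 10.31 and 10.78 in mp53. In Ras they were 8.69, 8.87 and 10.92 and in mp53/Ras 9.15, 9.50 and 9.88. The Ras median was below every YAMC and mp53 array. Vldlr was called lower than in YAMC in bleo/Neo (-0.72 ± 0.23), Ras (-1.05 ± 0.23) and mp53/Ras (-0.78 ± 0.23), and higher than bleo/Neo in mp53 (0.62 ± 0.23).

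**Figure D3:**
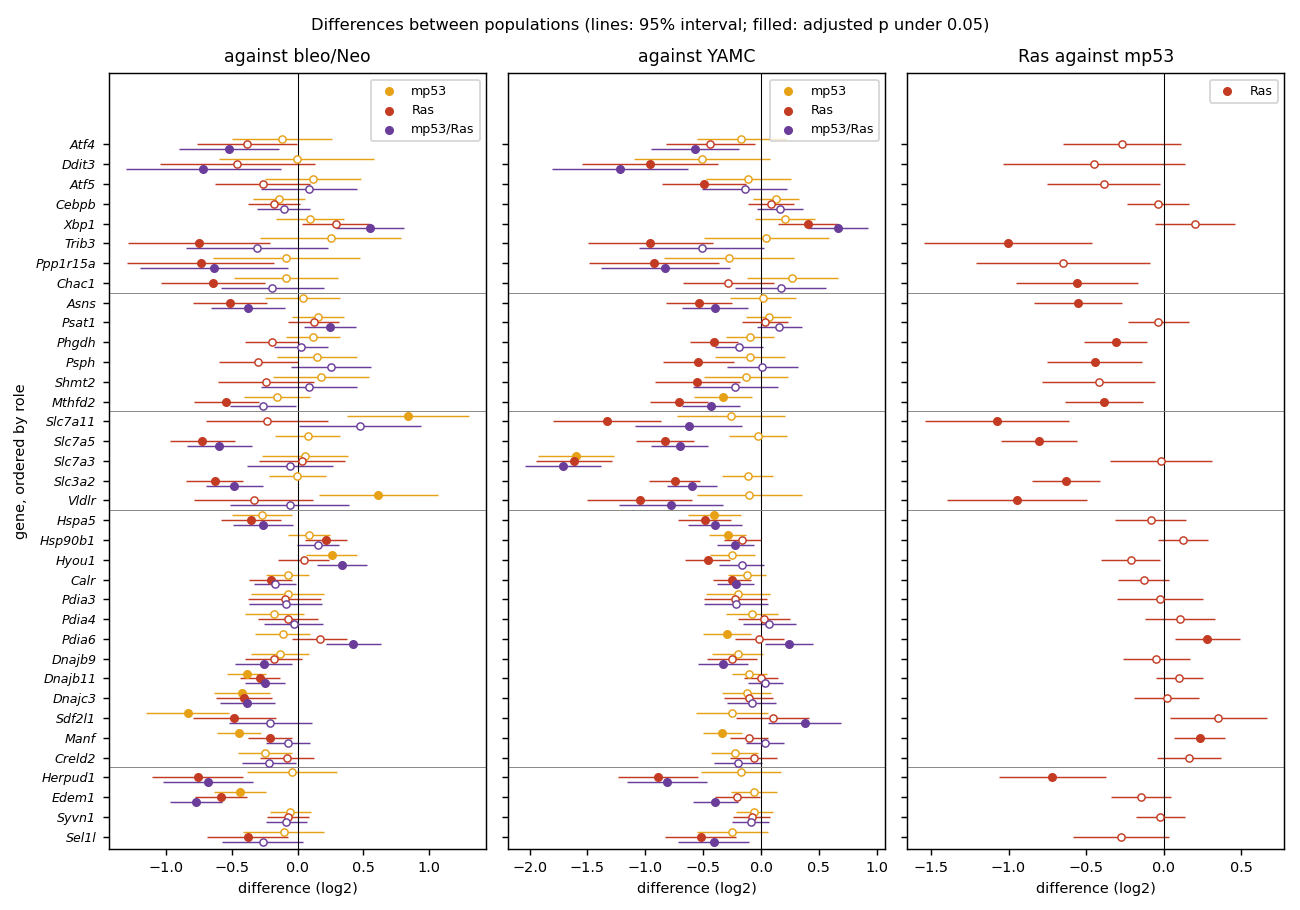
Differences of the 36 genes (log2, with 95% intervals from limma; filled points have an adjusted p under 0.05) of mp53, Ras and mp53/Ras against bleo/Neo, of the same populations against YAMC, and of Ras against mp53. From Atf4 to Vldlr the called differences of Ras all lie to the left of 0 except Xbp1 against YAMC. In the ER rows those of Ras also lie to the left, except Hsp90b1 against bleo/Neo and Pdia6 and Manf against mp53. Called differences of mp53 and mp53/Ras lie on both sides in both arms.

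In Ras against YAMC the 13 ER chaperones and folding enzymes changed less than the amino acid arm, with median differences of -0.106 and -0.551. This was not so in mp53 against bleo/Neo, where 5 of the 13 were called and 2 of the 19 amino acid arm genes. Against YAMC, 4 of the 13 were lower in mp53 and 3 in Ras, with none higher. Calls went both ways against bleo/Neo, with 1 higher and 4 lower in mp53, 1 and 6 in Ras, and 2 and 4 in mp53/Ras. Hspa5 (BiP), the main chaperone and the repressor of the sensors, had means of 13.18 for YAMC, 13.04 for bleo/Neo, 12.77 for mp53, 12.69 for Ras and 12.78 for mp53/Ras. It was lower than in YAMC in mp53 (-0.40 ± 0.11), Ras (-0.49 ± 0.11) and mp53/Ras (-0.40 ± 0.11), and lower than in bleo/Neo in Ras (-0.35 ± 0.11) and mp53/Ras (-0.26 ± 0.11). The last was not called under 3 alternatives, the Ras difference from bleo/Neo was -0.22 with the mean of all probe sets (adjusted p 0.051), and another, dimmer Hspa5 probe set was 0.05 and 0.11 above bleo/Neo in Ras and mp53/Ras. Calr (calreticulin) was lower in Ras than in YAMC and bleo/Neo, -0.25 ± 0.08 and -0.20 ± 0.08, and lower in mp53/Ras than in YAMC, -0.22 ± 0.08. Hsp90b1 (GRP94) was lower than in YAMC in bleo/Neo (-0.38 ± 0.08), mp53 (-0.29 ± 0.08) and mp53/Ras (-0.22 ± 0.08), and higher than bleo/Neo in Ras (0.22 ± 0.08). Both calls of Hsp90b1 in the populations with Ras were lost with the mean of its probe sets. Hyou1 (ORP150), a nucleotide exchange factor for BiP, was lower than in YAMC in bleo/Neo (-0.51 ± 0.10) and Ras (-0.46 ± 0.10). It was higher than bleo/Neo in mp53 (0.26 ± 0.10) and mp53/Ras (0.34 ± 0.10), and the latter was 0.15 with the mean of its probe sets, adjusted p 0.067.

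Pdia6, a disulfide isomerase that switches off activated sensors, was higher in mp53/Ras than in YAMC, bleo/Neo and mp53. Its arrays were 11.94 to 12.46 in YAMC with median 12.27, 11.20 to 12.39 in bleo/Neo with median 12.03, 11.59 to 12.36 in mp53 with median 11.91, 11.75 to 12.45 in Ras with median 12.37, and 12.25 to 12.66 in mp53/Ras with median 12.47. It was 0.54 ± 0.10 higher in mp53/Ras than in mp53 and 0.43 ± 0.10 higher than in bleo/Neo, with adjusted p of 2.9e-05 and 0.0005. The difference from YAMC, 0.24 ± 0.10, became -0.03 with the mean of all Pdia6 probe sets, and the difference of Ras from mp53, 0.28 ± 0.10, became 0.02. Pdia3 and Pdia4, other disulfide isomerases, and Creld2, a secreted ER stress protein, were not called in any comparison with all arrays fitted. Their differences between populations lay between -0.22 and 0.01, between -0.18 and 0.15, and between -0.24 and 0.16. Without mp53 10 and Ras 10, Creld2 was called lower in mp53 than in bleo/Neo (-0.28, adjusted p 0.033 in limma). Without all 4 arrays this difference was -0.31, adjusted p 0.016.

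The means of Sdf2l1, Dnajb11, Dnajc3 and Manf were highest in the vector population, although not every difference was called. Sdf2l1, a BiP cochaperone, had its lowest, median and highest arrays at 8.55, 9.07 and 9.60 in YAMC, 8.96, 9.78 and 10.32 in bleo/Neo, 8.05, 8.98 and 9.27 in mp53, 8.54, 9.32 and 9.66 in Ras, and 8.95, 9.43 and 9.89 in mp53/Ras. The bleo/Neo median was above every YAMC and every mp53 array. Sdf2l1 was 0.58 ± 0.16 higher in bleo/Neo than in YAMC and -0.84 ± 0.16 in mp53 from bleo/Neo, a level 1.78 times lower, while mp53/Ras, at -0.21 from bleo/Neo, was not called. The other BiP cochaperones Dnajb11 and Dnajc3 (p58IPK) were 0.29 ± 0.07 and 0.30 ± 0.11 higher in bleo/Neo than in YAMC. Against bleo/Neo, Dnajb11 was -0.39 ± 0.07 for mp53, -0.29 ± 0.07 for Ras and -0.25 ± 0.07 for mp53/Ras, and Dnajc3 was -0.42 ± 0.11, -0.41 ± 0.11 and -0.38 ± 0.11. Neither was called in mp53, Ras or mp53/Ras against YAMC. With the Dnajc3 probe set of highest variance its differences were 0.23 for bleo/Neo from YAMC (adjusted p 0.41), -0.28 for mp53 from bleo/Neo (0.32) and -0.21 for mp53/Ras from bleo/Neo (0.40), and none was called. The first was also lost with the mean of its probe sets (0.18, adjusted p 0.13) and when only the groups compared were fitted (adjusted p 0.056). Manf, a secreted survival factor, was -0.44 ± 0.08 in mp53 from bleo/Neo and -0.34 ± 0.08 from YAMC, while bleo/Neo from YAMC (0.11) and mp53/Ras from bleo/Neo (-0.08) were not called. In Ras it was -0.21 ± 0.08 from bleo/Neo, not called without mp53 10 and Ras 10 (-0.19, adjusted p 0.064). Dnajb9 (ERdj4) was called in mp53/Ras only, -0.33 ± 0.11 from YAMC and -0.26 ± 0.11 from bleo/Neo, and without mp53 10 and Ras 10 it was also called in Ras from YAMC (-0.29).

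In ER-associated degradation, Herpud1, a membrane adaptor of the degradation complex, fell wherever Ras was present. Its lowest, median and highest arrays were 10.42, 10.74 and 11.64 in YAMC, 10.36, 10.67 and 11.43 in bleo/Neo, 9.71, 10.68 and 11.39 in mp53, 9.55, 9.83 and 10.99 in Ras, and 9.50, 10.08 and 10.49 in mp53/Ras. The medians with Ras were below every YAMC and bleo/Neo array, and the single mp53 array as low was mp53 10. Ras was -0.89 ± 0.17 from YAMC, -0.76 ± 0.17 from bleo/Neo and -0.72 ± 0.17 from mp53, and mp53/Ras was -0.81 ± 0.17, -0.68 ± 0.17 and -0.64 ± 0.17, with adjusted p of at most 0.00174. The other Herpud1 probe set gave -0.73 and -0.69 against bleo/Neo. Edem1, a lectin that hands misfolded glycoproteins on for degradation, had medians of 10.29 for YAMC, 10.69 for bleo/Neo, 10.22 for mp53, 10.06 for Ras and 9.82 for mp53/Ras. All 10 mp53/Ras arrays, at most 10.04, were below all 10 bleo/Neo arrays, at least 10.19. The differences from bleo/Neo were -0.44 ± 0.10 for mp53, -0.58 ± 0.10 for Ras and -0.77 ± 0.10 for mp53/Ras, and Edem1 was 0.38 ± 0.10 higher in bleo/Neo than in YAMC. Sel1l, the scaffold of the ligase complex, was -0.52 ± 0.15 in Ras from YAMC and -0.38 ± 0.15 from bleo/Neo, and -0.41 ± 0.15 in mp53/Ras from YAMC. All 3 Sel1l calls were lost with its probe set of highest variance. Syvn1 (HRD1), the ligase itself, was not called in any comparison, and its differences between populations lay between -0.09 and -0.01.

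Between the vector population and the parental cells 10 of the 36 genes differed, a share below that of all tested genes. In bleo/Neo against YAMC, 5 genes were higher and 5 lower, where 20% and 17.4% of all genes were. The falls were Slc7a11, Vldlr, Hyou1, Hsp90b1 and Slc7a3, the last kept by the filter on dim genes through its YAMC arrays. The rises were Sdf2l1, Edem1, Dnajc3, Dnajb11 and Cebpb, and without all 4 arrays Chac1 (0.46) was a further rise. Of the falls and rises, Slc7a11, Vldlr, Hyou1, Sdf2l1, Edem1, Dnajc3 and Dnajb11 were called with the opposite sign in mp53 against bleo/Neo. That comparison shares the bleo/Neo arrays. None of these 7 genes was called between mp53 and YAMC, where their differences ran from -0.26 to -0.06. In mp53 against YAMC the 6 lower genes were Slc7a3, Hspa5, Manf, Mthfd2 (-0.33 ± 0.13), Pdia6 (-0.30 ± 0.10) and Hsp90b1. Slc7a3 entered this count through the same filter, and Mthfd2 was not called under 8 alternatives.

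The single oncogene populations were also compared directly. In Ras against mp53, 10 of the 19 amino acid arm genes were lower and none higher, and at an unadjusted p under 0.05 in limma 13 were lower and none higher. In the ER arm 1 of 17 was lower, Herpud1, and 2 were higher, Pdia6 (0.28 ± 0.10) and Manf (0.23 ± 0.08). Of all tested genes 16.2% were lower and 16.7% higher at an adjusted p under 0.05, and their shares at an unadjusted p are not given. The amino acid arm genes were Slc7a11, Trib3, Vldlr (-0.95 ± 0.23), Slc7a5 (-0.80 ± 0.12), Slc3a2 (-0.63 ± 0.11), Chac1, Asns (-0.55 ± 0.14), Psph (-0.45 ± 0.15), Mthfd2 (-0.38 ± 0.13) and Phgdh (-0.31 ± 0.10). Without mp53 10 and Ras 10 the count was 15 lower and 2 higher, with Ppp1r15a (-0.82), Atf5 (-0.52), Shmt2 (-0.52) and Sel1l (-0.38) added. Of all tested genes 18.8% were then lower and 19.3% higher. Without all 4 arrays the count was 17 lower and 3 higher, beside 19.5% and 20.2% of all genes.

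The 6 genes with the C/EBP-ATF letters were all called lower in Ras against mp53, 5 of them in the amino acid arm and Herpud1 in the ER arm. Of all tested genes 16.2% were lower. Their median difference was -0.83. Of the 7 genes with the ER stress element none was lower, also at an unadjusted p under 0.05 in limma, and Pdia6 was higher, with a median of 0.02. Other comparisons gave closer counts. Against bleo/Neo, 4 of the 6 and 3 of the 7 were lower in Ras, beside 21.4% of all genes. In mp53/Ras 2 of the 6 and 2 of the 7 were lower, near the 27.9% of all genes. Against YAMC 5 of 6 and 2 of 7 were lower in Ras (21.2% of all genes). In mp53/Ras they were 4 of 6 and 3 of 7 (28.7%). Herpud1, which holds the C/EBP-ATF letters and the ER stress element II, went with the amino acid arm, and Dnajb11, the other gene with element II, was at 0.10, not called. The promoters were set beside levels on these arrays, and no binding was measured.

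With Ras added to mutant p53, 7 genes were lower and 4 higher, beside 23.8% and 23.3% of all tested genes. The lower genes in mp53/Ras against mp53 were Ddit3 (-0.71 ± 0.29), Slc7a5 (-0.68 ± 0.12), Vldlr (-0.68 ± 0.23), Herpud1, Slc3a2 (-0.48 ± 0.11), Asns (-0.42 ± 0.14) and Edem1 (-0.34 ± 0.10). The higher were Sdf2l1 (0.63 ± 0.16), Pdia6, Xbp1 and Manf (0.37 ± 0.08). The count was 8 lower and 4 higher without mp53 10 and Ras 10 (24.2% and 23.6% of all genes). Without all 4 arrays 9 were lower and 4 higher (24.3% and 23.4%). With mutant p53 added to Ras, 3 genes were higher, Slc7a11, Psph and Hyou1 (0.29 ± 0.10), where 9.12% of all genes were higher and 12.5% lower. None was lower, and at an unadjusted p under 0.05 in limma 7 were higher and none lower. No share of all genes is given at that threshold. Without mp53 10 and Ras 10, 5 genes were called higher, with Chac1 (0.56, adjusted p 0.029) and Phgdh (0.27, adjusted p 0.048), beside 9.14% of all genes. Without all 4 arrays 7 were higher, beside 11.1%.

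The non-additive term asks whether the Ras difference in the presence of mutant p53 departs from the Ras difference in its absence. It was called for 4 genes, all above 0, where 11.8% of all tested genes were called above 0 and 12% below. These were Sdf2l1 (1.11 ± 0.22, adjusted p 0.0001), Manf (0.58 ± 0.12, adjusted p 0.0002), Dnajc3 (0.45 ± 0.15, adjusted p 0.022) and Dnajb11 (0.42 ± 0.11, adjusted p 0.002). For Sdf2l1, Ras was -0.48 from bleo/Neo without mutant p53 and 0.63 from mp53 with it. For Manf the same pair was -0.21 and 0.37, for Dnajb11 -0.29 and 0.14 and for Dnajc3 -0.41 and 0.04. In all 4 the group mean was highest in bleo/Neo, the baseline of the term. Without mp53 10 and Ras 10, Dnajc3 was 0.39 with adjusted p 0.0502 and was not called. At an unadjusted p under 0.05 in limma, 7 genes were above 0 and none below, without a share of all genes at that threshold. Without all 4 arrays 5 genes were called, Mthfd2 (0.46) and Hspa5 (0.42) being added and Dnajc3 lost. Of all tested genes 13.1% were then called above 0 and 12.9% below. With all arrays no amino acid arm gene was called, and the 1 with an unadjusted p under 0.05 was Mthfd2, at 0.43 ± 0.18, adjusted p 0.066.

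The amino acid arm varied as a block from array to array within populations. Over deviations from the group means on the 50 arrays, the median correlation of its 171 gene pairs was 0.64. It was 0.34 over the 136 pairs of the ER arm, 0.17 over the 323 pairs between arms and 0.0022 over all pairs of tested genes. Without mp53 10 and Ras 10 the first 3 medians were 0.61, 0.36 and 0.17. The closest pairs were Trib3 with Vldlr (r = 0.91), Phgdh with Shmt2 (0.90), Asns with Phgdh (0.90) and Atf4 with Ddit3 (0.89). All genes of an array share its RNA, labelling and hybridisation, so these values describe the arrays and are given without a test.

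The mean of the 19 amino acid arm genes, each as its deviation from its mean over all arrays, was -0.68 to -0.51 on Ras 1 to Ras 7 and 0.08, 0.27 and 0.41 on Ras 8, 9 and 10. For 15 of the 19 genes the arrays Ras 8, 9 and 10 all lay above Ras 1 to 7, as did Hspa5, Dnajb9 and Herpud1 of the 17 ER arm genes. The share of all tested genes that did so is not given, so these counts do not show whether the shift was particular to these genes. Ras 10 is one of the arrays nearest another group over all genes, and Ras 8 and Ras 9 are not. High arrays were not particular to Ras: YAMC 2, YAMC 9 and YAMC 10 were at 0.91, 0.80 and 0.55, bleo/Neo 8, 9 and 10 at 0.35, 0.58 and 0.50, and mp53 9 at 0.58. The ER arm mean spanned -0.44 to 0.28 over all 50 arrays. Its lowest arrays were Ras 1, 2 and 3 and mp53 3. Scan dates and culture batches are not given in the sources used here, and their part in these levels was not tested.

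**Figure D4:**
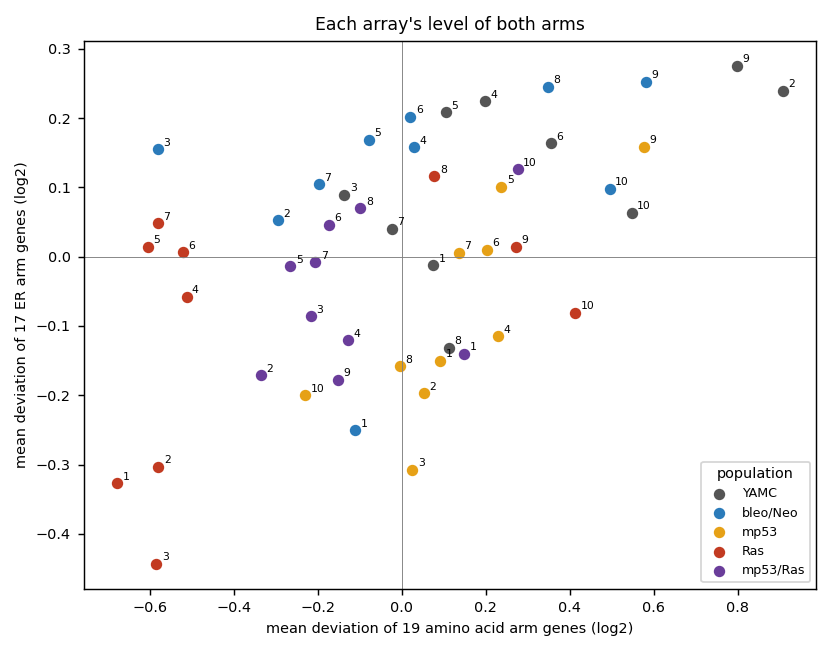
Mean deviation of the 19 amino acid arm genes (horizontal) and of the 17 ER arm genes (vertical) on each array, in log2 units, with the replicate number beside each point. Ras 1 to Ras 7 form the left edge between -0.68 and -0.51, Ras 8 to Ras 10 lie to the right of 0, and YAMC 2 and YAMC 9 are at the upper right.

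Single genes did not all follow their arm. Set against the mean of the other amino acid arm genes within populations, Trib3 had r = 0.94, Chac1 0.91 and Atf4 0.90, while Atf5 had 0.34 and Slc7a3 0.23. Herpud1, an ER arm gene, had 0.90 with the amino acid arm and 0.49 with its own. Sel1l had 0.67 and 0.09, and Hspa5 was close to both, 0.71 and 0.77. The remaining ER arm genes were at 0.50 or lower with the amino acid arm, down to -0.21 for Dnajc3. In their own arm the highest were Hspa5 (0.77), Pdia6 (0.77), Dnajb11 (0.69) and Edem1 (0.69), and Syvn1 was lowest at 0.06. Xbp1, whose group means ran opposite to Atf4, still had 0.57 with the amino acid arm within populations.

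**Figure D5:**
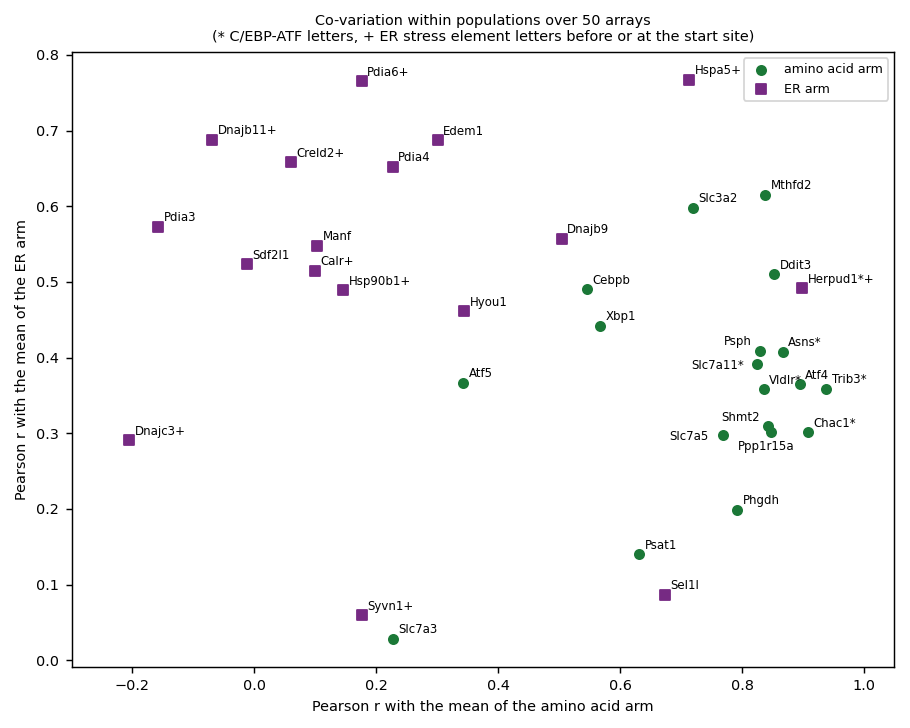
Pearson r of each gene's deviations from its group means with the mean of the other amino acid arm genes (horizontal) and of the other ER arm genes (vertical), over 50 arrays. Circles are amino acid arm genes and squares ER arm genes, a star marks the C/EBP-ATF letters and a plus either ER stress element, and Herpud1, with both marks, lies among the circles at 0.90.

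Other genes of the same pathways were counted from 5 lists. Among 22 tested further ATF4 targets, 10 were lower and 1 higher in Ras against YAMC, and 9 and 1 in Ras against mp53, where 21.2% and 21.5% and then 16.2% and 16.7% of all tested genes were lower and higher. Cytosolic aminoacyl-tRNA synthetases, which load amino acids on tRNA and of which several respond to ATF4, gave 10 lower of 19 in Ras against YAMC, 6 lower against mp53, and 3 lower and 1 higher against bleo/Neo, beside 21.4% and 19.7% of all genes. Of 31 further ER folding and degradation genes, 14 were lower and 3 higher in Ras against YAMC and 10 and 2 against bleo/Neo. Stress sensors and eIF2 pathway genes gave 6 lower and 4 higher of 17 in Ras against YAMC, and genes of ER translocation and vesicle transport 3 lower and 8 higher of 28. In mp53/Ras against bleo/Neo the lists gave 5 lower and 4 higher ATF4 targets, 2 and 3 synthetases, 8 and 4 folding genes, 4 and 6 sensors and eIF2 genes, and 6 and 10 translocation genes, where 27.9% of all tested genes were lower and 26.7% higher. As shares of the lists, the lower genes were 22.7%, 10.5%, 25.8%, 23.5% and 21.4%, all below that of all tested genes. Within populations the median r with the amino acid arm was 0.70 for the further ATF4 targets, 0.63 for the synthetases, 0.26 for the further folding genes, 0.13 for the sensors, 0.07 for the translocation genes and -0.01 for all genes that are not members.

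The genes of those lists with the largest called differences in mp53/Ras against bleo/Neo moved both ways. The ER-anchored factors Creb3l1 and Creb3 were at -1.02 ± 0.15 and -0.999 ± 0.088, and the eIF2B subunit gene Eif2b2 at 0.66 ± 0.09. Among ATF4 targets the mitochondrial folate genes Aldh1l2 and Mthfd1l were at 1.02 ± 0.41 and 0.75 ± 0.15 and the stress factor Atf3 at -0.99 ± 0.20. The synthetase genes Aars and Gars (alanine and glycine) were at -0.72 ± 0.17 and -0.51 ± 0.09, and Vars (valine) at 0.68 ± 0.14. The folding genes Dnajc1 and Sil1 were at -0.69 ± 0.10 and -0.53 ± 0.13 and Txndc5 at 0.65 ± 0.17. In translocation, the signal recognition particle genes Srp9 and Srp72 were at 0.54 ± 0.09 and -0.50 ± 0.08 and the signal peptidase gene Spcs3 at -0.44 ± 0.09.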

How the data were processed

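Polysomal RNA of 5 groups of 10 samples was measured on Affymetrix mouse genome arrays. The authors deposited 1 linear intensity per probe set and array, made with RMA per the submitters' processing notes, with no version and no word on how the log scale was undone. The array medians, 86.4 to 86.7, and the shared extremes are those of quantile-normalised arrays. Of 45101 probe sets, 64 were blank. The deposited intensities were converted here to log2 without an offset. Gene symbols came from the platform annotation, and promoters from RefSeq tables (GRCm38.p6). Each gene was read from its brightest probe set with exactly 1 symbol, and the 12883 genes above the table median on at least 10 of 50 arrays were tested. One limma fit (version 3.58.1, R 4.3.3, intensity trend) over all arrays gave 11 comparisons, each adjusted by Benjamini-Hochberg over all tested genes, and was checked on simulated data. Arrays have no read depth, so their number limits the precision. The members and gene lists were chosen with earlier results of these data known. Every member is named. Those whose group means span at least 1 log2 unit are given array by array, and in each comparison up to 5 called rises and 5 falls are given with their SE. Up to 3 called genes per other list are named by their size in mp53/Ras against bleo/Neo. A few further member values, such as those of Herpud1, Sdf2l1, Pdia6 and Edem1 by array, were chosen after their values were seen.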

Additional observations from a re-analysis of the deposited data

Results flagged for a closer look

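Of 180 sets of 10 arrays (36 genes in 5 groups), 14, or 7.78%, held 1 array separated from the rest by more than Dixon's criterion, where chance gives about 1 in 20. In bleo/Neo, array 1 was low for Pdia4 (8.089, the next array at 8.776) and Pdia6 (11.2 against 11.93) and high for Syvn1 (10.62 against 10.26). Array 3 of bleo/Neo was low for Psph (10.02 against 10.81) and Slc7a5 (11 against 11.47), and array 9 was high for Cebpb (12.23 against 11.82). In mp53, array 8 was high for Slc7a3 (7.007 against 5.599), array 10 low for Slc3a2 (11.65 against 12.32), array 5 high for Hyou1 (10.32 against 10.04) and array 9 high for Sel1l (11.53 against 11.20). In Ras, array 10 was high for Vldlr (10.92 against 9.799) and array 3 low for Calr (12.07 against 12.39). In mp53/Ras, array 10 was high for Slc7a11 (7.609 against 6.752) and array 2 low for Herpud1 (9.503 against 9.973).

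The Ras difference departed between cells with and without mutant p53 for 4 genes by the non-additive term of the limma fit. They were Sdf2l1 (1.11, adjusted p 0.0001), Manf (0.58), Dnajc3 (0.4502) and Dnajb11 (0.4248). This is 11.1% of the 36 genes, near the 11.8% of all tested genes called above 0. In each of the 4 the Ras difference was below 0 against bleo/Neo and above 0 against mp53. The latter was not called for Dnajb11 (0.14) and Dnajc3 (0.04). Without mp53 10 and Ras 10 the term was not called for Dnajc3 (adjusted p 0.0502 in limma).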

How the results depend on the processing

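Of 128 called differences, 94 were called under each of the 12 alternatives that gave a value. The counts that moved by over 1.5 times were as follows. With array weights the called members were 15 in mp53 against bleo/Neo (8 as reported), 10 in mp53 against YAMC (6), 18 in mp53/Ras against mp53 (11), 16 in mp53/Ras against Ras (3), 24 in Ras against mp53 (13) and 11 for the non-additive term (4). Array weights also raised the shares of all tested genes. These were 27.1% lower and 25% higher in mp53 against bleo/Neo and 22.6% and 23.8% in mp53 against YAMC. They were 31.6% and 31.2% in mp53/Ras against mp53, 19.4% and 19.2% in mp53/Ras against Ras, and 26.2% and 26.4% in Ras against mp53. For the non-additive term 19.7% were below 0 and 20.2% above. With the probe set of highest variance mp53 against YAMC gave 3 (11.6% and 12.2% of all genes) and mp53/Ras against Ras 5 (12.7% and 10.3%). For mp53/Ras against Ras, fitting only the groups compared gave 5, where 15.3% of all genes were lower and 12.7% higher. Leaving out 2 arrays gave 5 there (12.4% and 9.14%), and leaving out 4 arrays gave 7 (14% and 11.1%). Leaving out 4 arrays gave 20 in Ras against mp53 (19.5% and 20.2%). Pdia6 in mp53/Ras against YAMC turned to -0.0276 with the mean of all probe sets, and Slc7a3 in Ras against mp53, not called as reported, was 0.22 with array weights. The cause of these changes was not tested.

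Replicate numbers are shared between groups. Of 100 pairs of arrays with the same number 67 correlated above 0.1 in their deviations (lowest -0.52, median 0.19). The labels do not say whether equal numbers mark arrays handled together, so the main fit did not take them as pairs. For 31 of 50 arrays the best correlated array of another group had the same number, which is a hint from the data and not the design. With a replicate block all 128 calls were kept and 27 were added. There were then 6 called members in mp53/Ras against Ras, where 14.5% of all genes were lower and 11.6% higher. For the non-additive term there were 7, with 14% of all genes below 0 and 14% above. No signal over background was given for the probe sets, and Slc7a3 and Slc7a11 lay below the table median on many arrays.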
